A study of Homo sapiens with 12 samples.

Results

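The G1 and S phase cyclins and kinases are the 10 genes CCND1, CCND2, CCND3, CCNE1, CCNE2, CCNA1, CCNA2, CDK2, CDK4 and CDK6, which were chosen by name as the cyclins D, E and A and the cyclin-dependent kinases (CDKs) that they bind. They are 10 of the 17958 genes measured here. Each gene was read from the transcript cluster, a set of probes that target the same transcripts, whose annotation holds that symbol alone, and where several did, from the brightest. CCND1 had 2 such clusters and the other members 1 each, so that 11 clusters stand for the 10 genes.

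The arrays came from BT549, a human triple-negative breast cancer cell line, and address what estrogen receptor β2 (ERβ2), a splice variant of ESR2 with an altered C-terminal end, does to gene expression in such cells. BT549 cultures without antibiotics received either control siRNA or siRNA against ERβ2 by transfection, and RNA was taken after 48 h. Other cultures received the pcDNA3 empty vector or a plasmid with FLAG-tagged ERβ2 cDNA, and RNA was taken after 24 h. Each of the 4 groups had 3 biological replicates, so 12 Affymetrix Human Gene 1.1 ST arrays were measured. No group was left untransfected, the transfections were transient, and all results concern this single line. The empty vector and control siRNA arrays differ in time, reagent and cargo together, and these cannot be told apart.

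As background, D-type cyclins bind CDK4 and CDK6 when growth signals arrive, and the complexes begin to phosphorylate the retinoblastoma protein RB1 and its relatives. Cyclin E with CDK2 continues this at the entry into S phase, which frees E2F transcription factors. These switch on DNA replication genes and also the genes of cyclin E and cyclin A themselves. Cyclin A with CDK2 then acts through S phase, while the inhibitors p16 (CDKN2A), p21 (CDKN1A) and p27 (CDKN1B) hold these kinases back.

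RefSeq promoter windows of GRCh38.p14 were at hand for 6 of the 10 members, and 4 are shown because their genes stand for the patterns found: CCNA2 and CCNE1 fell after ERβ2 siRNA, CDK4 did not pass and CDK6 rose. Each is the 250 bases before an annotated start, written 5′ to 3′ on the strand of the gene. CCNA2 lies on the minus strand at chr4:121823884-121824133, CCNE1 on the plus strand at chr19:29811741-29811990, CDK4 on the minus strand at chr12:57752311-57752560, and CDK6, by 1 of its 2 windows, on the minus strand at chr7:92833960-92834209. Capitals mark matches on either strand to the motifs named after the sequences.
CCNA2: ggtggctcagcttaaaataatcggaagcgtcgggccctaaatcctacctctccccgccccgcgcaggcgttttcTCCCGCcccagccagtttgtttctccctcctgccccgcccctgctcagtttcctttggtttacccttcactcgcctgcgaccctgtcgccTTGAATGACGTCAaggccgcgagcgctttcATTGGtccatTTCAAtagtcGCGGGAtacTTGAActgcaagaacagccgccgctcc
CCNE1: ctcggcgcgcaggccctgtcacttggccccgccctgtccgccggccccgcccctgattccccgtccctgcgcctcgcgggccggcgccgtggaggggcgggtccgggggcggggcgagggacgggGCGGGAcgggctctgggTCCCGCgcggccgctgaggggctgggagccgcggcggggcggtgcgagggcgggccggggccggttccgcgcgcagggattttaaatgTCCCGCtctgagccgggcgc
CDK4: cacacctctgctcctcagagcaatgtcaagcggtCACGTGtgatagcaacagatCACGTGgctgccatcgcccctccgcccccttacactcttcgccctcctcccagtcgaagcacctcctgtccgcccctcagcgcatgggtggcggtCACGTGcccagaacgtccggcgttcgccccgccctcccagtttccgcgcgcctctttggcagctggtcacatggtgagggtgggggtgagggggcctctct
CDK6: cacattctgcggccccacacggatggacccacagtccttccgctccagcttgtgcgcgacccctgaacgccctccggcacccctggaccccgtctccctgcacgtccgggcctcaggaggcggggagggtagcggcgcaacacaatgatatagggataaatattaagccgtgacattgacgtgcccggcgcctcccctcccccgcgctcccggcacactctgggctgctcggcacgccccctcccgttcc

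The motifs searched on both strands were the E2F sites TTTCGCGC and TTTGGCGC, the E2F core TCCCGC, the cell cycle homology region TTTGAA and its core TTGAA, the cyclic AMP response element TGACGTCA, the CCAAT box, the E-box CACGTG and the AP-1 site TGACTCA. Every TTTGAA holds a TTGAA. In CCNA2 the capitals mark TCCCGC at 2 places, TTGAA at 3 places, TGACGTCA once, directly after a TTGAA, and CCAAT once in the reverse orientation. Among all 35116 windows of the table, also searched over the 250 bases before the start, 23.5% held TCCCGC, 30% TTGAA, 1.65% TGACGTCA and 32% CCAAT. In CCNE1 the capitals mark TCCCGC at 3 places, and in CDK4 they mark CACGTG at 3 places, a motif held by 6.34% of windows. The CDK6 window held no match to these letters, and neither did its other window at chr7:92836574-92836823. Of the members with windows not shown, CCNA1, which fell after ERβ2 siRNA, had no match either. CCND3, which did not pass, had TCCCGC and CCAAT among its windows. Whether such matches go with the direction of change was not tested. TTTCGCGC (0.439% of windows), TTTGGCGC (0.55%), TTTGAA (13.3%) and TGACTCA (4.2%) had no match in the 4 sequences shown. A match or its lack describes these letters only.

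After ERβ2 siRNA, 1 of the 10 members rose and 6 fell against control siRNA, while 3 did not pass, that is, had a limma adjusted p above 0.1. Among all genes tested 18.3% rose and 17.5% fell in this comparison. The median log2 difference of the members was -0.27, beside -0.03 over all genes. CDK6 rose 2.53-fold, and the genes that fell, CCND1, CCNE1, CCNE2, CCNA1, CCNA2 and CDK2, fell by 0.20 to 0.45 on the log2 scale. In 8 members the 3 arrays of each group did not overlap, as in 42.4% of all genes. Asking in addition for a 1.5-fold change, as the study's methods do, left CDK6 alone, beside 4.52% of all genes in either direction. In RNA of whole cultures, a smaller share of cells in a cell cycle phase and less RNA per cell cannot be told apart.

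**Figure D1:**
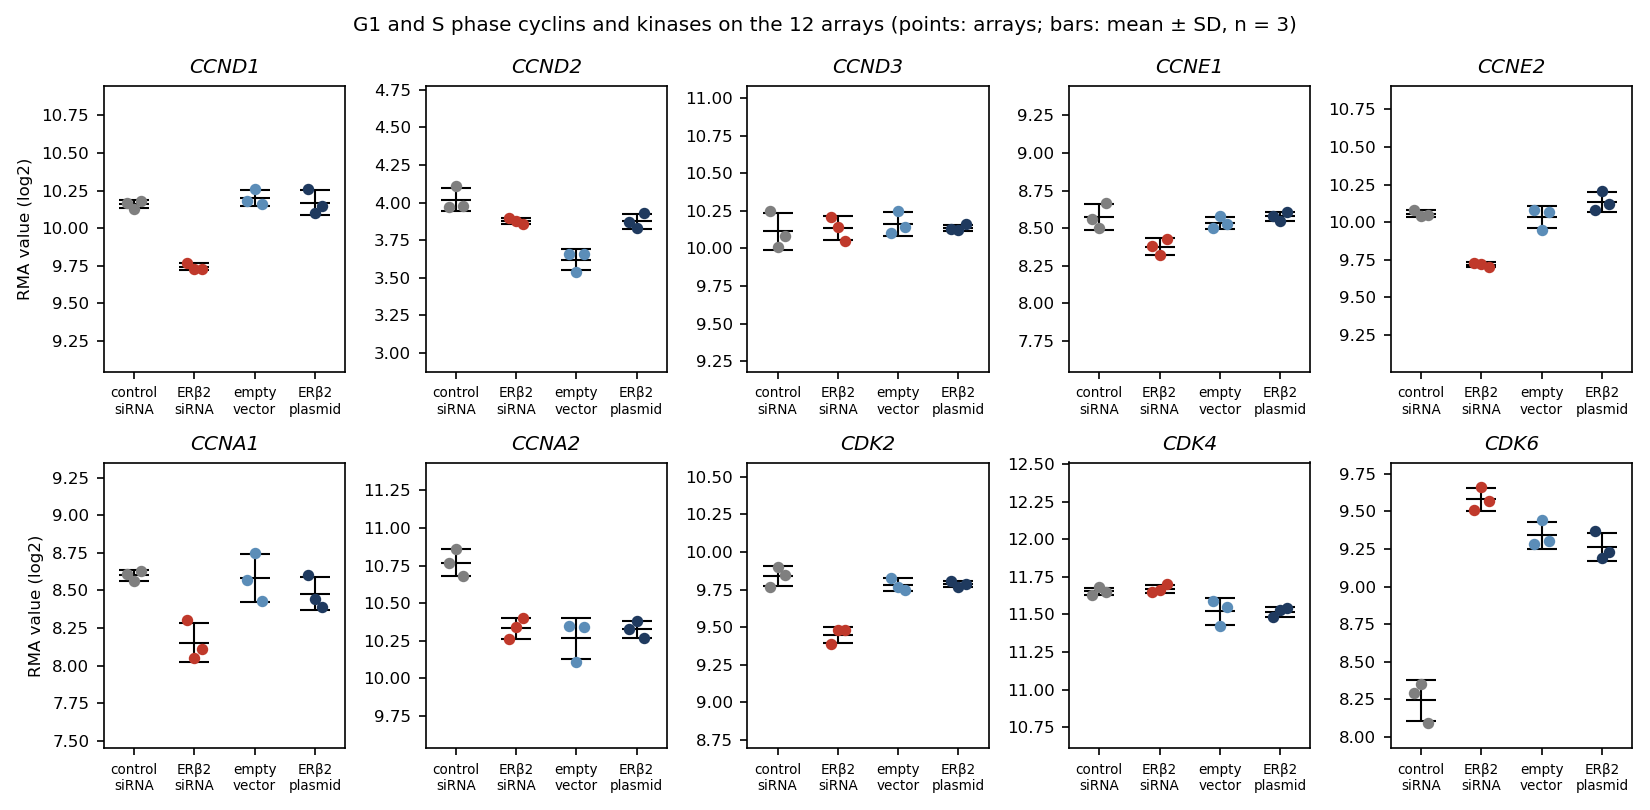
RMA value (log2) of each of the 10 genes on the 12 arrays, by group, with points for arrays and bars for mean ± SD (n = 3). Every vertical axis spans the same log2 width but has its own centre, so steps can be compared between panels and levels cannot. CDK6 and CCNA2 set the control siRNA arrays apart from the other 3 groups, while CCND1, CCNE2 and CDK2 set the ERβ2 siRNA arrays apart.

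Among the D-type cyclins, which couple growth signals to CDK4 and CDK6, CCND1 had log2 values of 10.17, 10.13 and 10.18 with control siRNA and 9.77, 9.73 and 9.73 with ERβ2 siRNA. The values were 10.18, 10.26 and 10.16 with empty vector and 10.26, 10.1 and 10.15 with the ERβ2 plasmid. All 3 ERβ2 siRNA arrays lay below the other 9, which overlapped. CCND1 fell by 0.42 (SE 0.05, limma adjusted p = 6.3e-04), a 1.33-fold decrease, against control siRNA. The order of the group means was empty vector 10.2, plasmid 10.17, control siRNA 10.16 and ERβ2 siRNA 9.74, and the upper 3 overlapped, with limma adjusted p = 0.947 for plasmid against empty vector and 0.628 for the outer pair, empty vector against control siRNA. The dimmer CCND1 cluster also fell after ERβ2 siRNA, by 0.35 (SE 0.06, limma adjusted p = 0.00299). Its values did not follow the brighter cluster elsewhere: it was lower with empty vector than with control siRNA (-0.26, SE 0.07, limma adjusted p = 0.0185), and its difference between ERβ2 siRNA and empty vector was -0.10 (SE 0.06, limma adjusted p = 0.278).

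CCND2 was dim, with 3.97, 4.11 and 3.98 with control siRNA and 3.9, 3.88 and 3.86 with ERβ2 siRNA. It read 3.66, 3.54 and 3.66 with empty vector and 3.87, 3.83 and 3.93 with the plasmid. The empty vector arrays were the lowest 3 of the 12 and overlapped no other group, and the ERβ2 siRNA arrays lay within the span of the plasmid arrays. The difference after ERβ2 siRNA was -0.14 (SE 0.06, 95% interval -0.28 to -0.0040, limma adjusted p = 0.117) and did not pass. Its mean over the 12 arrays, 3.85, is under the mean of 5 that was used as a filter for dim genes. CCND3 did not pass in any comparison: its values spanned 10.01 to 10.25 over all 12 arrays, the 4 groups overlapped, and its difference after ERβ2 siRNA was 0.02 (95% interval -0.16 to 0.20, limma adjusted p = 0.875).

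Both E-type cyclins, the partners of CDK2 at the start of S phase, fell after ERβ2 siRNA. CCNE2 had values of 10.08, 10.04 and 10.05 with control siRNA and 9.73, 9.72 and 9.7 with ERβ2 siRNA. With empty vector it had 10.08, 9.95 and 10.07, and with the plasmid 10.08, 10.21 and 10.12. The ERβ2 siRNA arrays were the lowest 3 of the 12, and the other groups overlapped. CCNE2 fell by 0.34 (SE 0.05, limma adjusted p = 0.00162), or 1.27-fold.

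CCNE1 had values of 8.56, 8.5 and 8.67 with control siRNA and 8.38, 8.32 and 8.43 with ERβ2 siRNA. It read 8.5, 8.58 and 8.53 with empty vector and 8.58, 8.55 and 8.61 with the plasmid. The ERβ2 siRNA arrays were again the lowest 3, by a narrower gap than for CCNE2, and the other 3 groups overlapped. CCNE1 fell by 0.20 (SE 0.06, limma adjusted p = 0.0506). This call was lost when the arrays were centred on their medians (limma adjusted p = 0.139), and when control siRNA replicate 3 (0.151), ERβ2 siRNA replicate 1 (0.108) or ERβ2 siRNA replicate 2 (0.137) was left out. In the order of means, the plasmid at 8.58, control siRNA at 8.58 and empty vector at 8.54 stood above ERβ2 siRNA at 8.38.

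The A-type cyclins followed different patterns. CCNA2, the A-type cyclin of dividing somatic cells, had values of 10.77, 10.86 and 10.68 with control siRNA and 10.26, 10.34 and 10.4 with ERβ2 siRNA. With empty vector it had 10.35, 10.11 and 10.34, and with the plasmid 10.33, 10.38 and 10.27. The control siRNA arrays were the highest 3 of the 12, and the other 3 groups overlapped one another. CCNA2 fell by 0.44 (SE 0.07, limma adjusted p = 0.00187) after ERβ2 siRNA, or 1.35-fold, and it was lower by a similar step with empty vector (-0.50, SE 0.08, limma adjusted p = 0.00241). Those 2 comparisons share the control siRNA arrays.

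CCNA1, the A-type cyclin known best from the germ line, read 8.61, 8.56 and 8.63 with control siRNA and 8.3, 8.05 and 8.11 with ERβ2 siRNA. Its values were 8.57, 8.75 and 8.43 with empty vector and 8.6, 8.44 and 8.39 with the plasmid. The ERβ2 siRNA arrays were the lowest 3, and the other groups overlapped. CCNA1 fell by 0.45 (SE 0.07, limma adjusted p = 0.00256), or 1.36-fold.

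Among the kinases, CDK6 had the widest spread of group means of all members. It had values of 8.29, 8.35 and 8.09 with control siRNA and 9.51, 9.66 and 9.57 with ERβ2 siRNA. With empty vector it had 9.28, 9.44 and 9.3, and with the plasmid 9.37, 9.19 and 9.23. The control siRNA arrays were the lowest 3, the ERβ2 siRNA arrays the highest 3, and the empty vector and plasmid arrays overlapped in between. CDK6 rose by 1.34 (SE 0.08, 95% interval 1.15 to 1.52, limma adjusted p = 1.8e-05) after ERβ2 siRNA and was place 31 by size of rise among the 17958 genes. It was also higher with empty vector than with control siRNA, by 1.10 (SE 0.08, limma adjusted p = 3.2e-05), or 2.14-fold.

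CDK2, the kinase that cyclins E and A activate, read 9.77, 9.9 and 9.85 with control siRNA and 9.39, 9.48 and 9.48 with ERβ2 siRNA. It read 9.83, 9.77 and 9.75 with empty vector and 9.81, 9.77 and 9.79 with the plasmid. The ERβ2 siRNA arrays were the lowest 3, and the other 9 overlapped. CDK2 fell by 0.39 (SE 0.06, limma adjusted p = 0.00183), or 1.31-fold. CDK4 had 11.63, 11.68 and 11.65 with control siRNA and 11.65, 11.66 and 11.7 with ERβ2 siRNA, which overlapped. Its difference was 0.02 (95% interval -0.10 to 0.14, limma adjusted p = 0.844). The CDK4 values of the transfections with plasmid DNA, 11.59, 11.42 and 11.55 with empty vector and 11.48, 11.53 and 11.54 with ERβ2, lay below all 6 siRNA arrays.

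The ERβ2 plasmid was compared with the empty vector at the same time point. No member passed, and 2 of all genes did, 0.0111% higher and 0% lower by limma. At an unadjusted p under 0.05 there were 1 of 10 members and 1260 of all genes. That member was CCND2, higher with the plasmid by 0.26 (SE 0.06, limma adjusted p = 0.479), and it was also the only member without overlap between the groups, beside 12% of all genes. The other 9 differences lay between -0.11 for CCNA1 and 0.10 for CCNE2. The 95% intervals of all 10 lay within -0.32 and 0.39. For CDK6 the interval was -0.24 to 0.09, and for CCND1 -0.17 to 0.11.

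**Figure D2:**
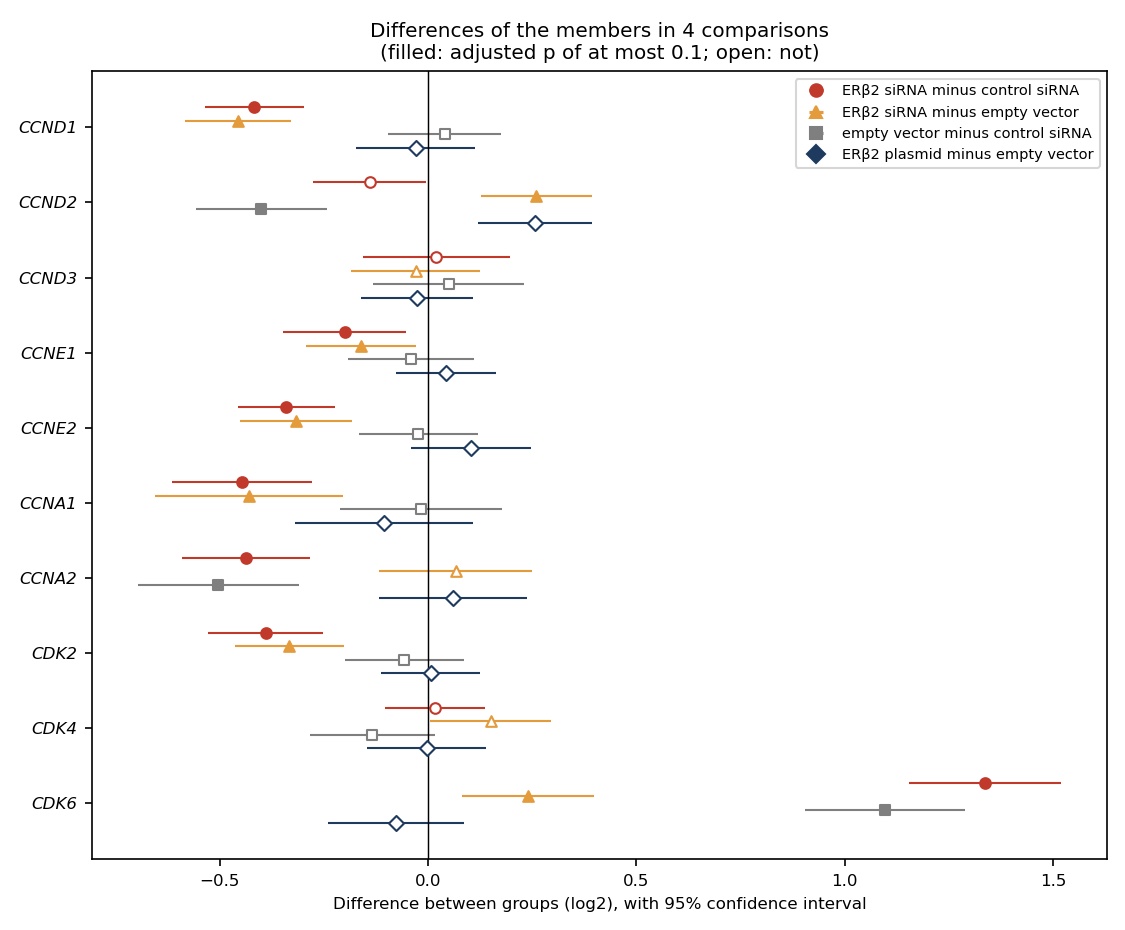
Difference between groups (log2, horizontal axis) for each of the 10 genes in 4 comparisons, with 95% confidence intervals, filled where the limma adjusted p was at most 0.1 and open otherwise. The knockdown and the empty vector comparison lie together for CDK6 and CCNA2, at 1.34 and 1.10 and at -0.44 and -0.50, and all 10 plasmid differences have open marks, 9 of them between -0.11 and 0.10 and CCND2 at 0.26.

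The effects of siRNA and plasmid were set against each other in 1 fit over the 12 arrays, as the siRNA difference minus the plasmid difference. The difference of effects passed in 8 of 10 members, above 0 for CDK6 (1.41, SE 0.11, limma adjusted p = 3.5e-06) and below 0 for CCND1, CCND2, CCNE1, CCNE2, CCNA1, CCNA2 and CDK2, from -0.24 to -0.50. Over all genes it passed in 15% above 0 and 11.3% below 0. CCND3 at 0.05 (limma adjusted p = 0.778) and CDK4 at 0.02 (0.883) did not pass. The CCNA1 difference, -0.34 (SE 0.12, limma adjusted p = 0.0757), lost its call when any of 7 arrays was left out, with values up to 0.166.

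The 2 control groups, in which nothing was aimed at ERβ2, differed in 3 of 10 members. CDK6 was higher with empty vector, and CCND2 (-0.40, SE 0.07, limma adjusted p = 0.00269) and CCNA2 were lower. Among all genes 19.2% were higher and 22.4% lower. The control groups did not overlap in 4 members, CDK4 included at -0.13 (SE 0.07, limma adjusted p = 0.152), and in 47.2% of all genes. CCND1, CCND3, CCNE1, CCNE2, CCNA1 and CDK2 had differences between -0.06 and 0.05, and their control groups overlapped. The dimmer CCND1 cluster, however, was lower with empty vector (-0.26, SE 0.07, limma adjusted p = 0.0185).

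Because the controls differed, the ERβ2 siRNA arrays were also set against the empty vector arrays, a comparison chosen after the data were seen that again mixes time, reagent and cargo. In it 2 members were higher and 5 lower, beside 18.8% and 17.7% of all genes, and 8 members had groups that did not overlap, beside 42.6%. CCND1 (-0.46), CCNE1 (-0.16), CCNE2 (-0.32), CCNA1 (-0.43) and CDK2 (-0.33) were lower against either control group. For CCND1 this held for the brighter cluster, while the dimmer one differed from empty vector by -0.10 (limma adjusted p = 0.278). CDK6 was higher by 0.24 (SE 0.07, limma adjusted p = 0.0307), beside 1.34 against control siRNA. CCNA2 differed by 0.07 (SE 0.08, 95% interval -0.12 to 0.25, limma adjusted p = 0.594) and so did not pass, and CCND2 turned to 0.26 higher (SE 0.06, limma adjusted p = 0.0104). CDK4 at 0.15 (limma adjusted p = 0.115) and CCND3 at -0.03 (0.793) did not pass.

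For the 3 members with the widest span of group means, the genes nearest in pattern were found by the root mean square difference over the 12 arrays after each gene was centred on its own mean. Nearest to CDK6 were MIGA1 (0.106), CRISPLD2 (0.110) and PDHX (0.120), which after ERβ2 siRNA were higher by 1.34, 1.47 and 1.28 and with empty vector by 0.97, 1.01 and 0.99. Nearest to CCNA2 were RYK (0.0691), TMPO (0.0750), which encodes a nuclear lamina protein, and SPAG5 (0.0754), which encodes a mitotic spindle protein. They were lower by 0.34, 0.47 and 0.37 after ERβ2 siRNA and by 0.46, 0.48 and 0.51 with empty vector. Nearest to CCND1 were USP11 (0.0287), a ubiquitin protease, AXL (0.0412), a receptor tyrosine kinase, and TGOLN2 (0.0453), a Golgi protein, lower by 0.39, 0.42 and 0.45 after ERβ2 siRNA and within 0.03 of control siRNA with empty vector. These genes were picked for likeness, so the values are a description.

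**Figure D3:**
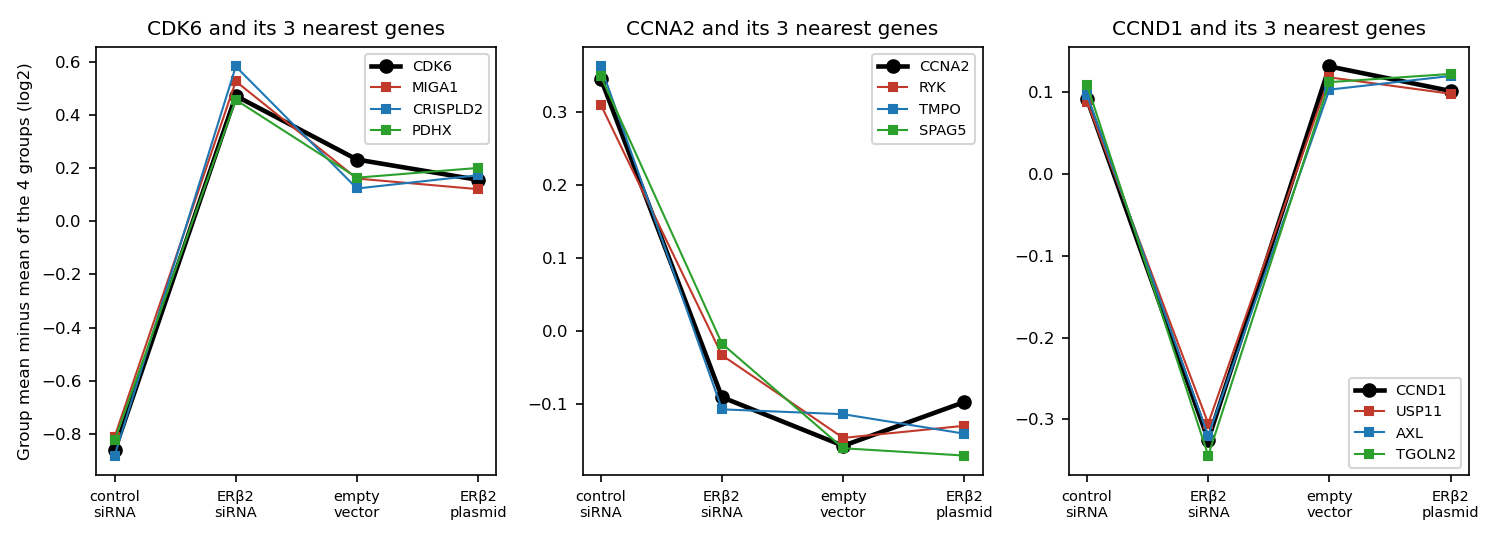
Group mean minus the mean of the 4 groups (log2, vertical axis) for CDK6, CCNA2 and CCND1 in black, each with its 3 nearest genes in colour, by group on the horizontal axis. CDK6 is lowest and CCNA2 highest in the control siRNA group, and CCND1 is lowest in the ERβ2 siRNA group.

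Genes that bind, activate, inhibit or degrade these kinases and cyclins formed a list of 26, of which 24 were measured: 4 rose, 10 fell and 10 did not pass after ERβ2 siRNA, with a median difference of -0.04 beside -0.03 over all genes. Among all genes 18.3% rose and 17.5% fell, shares that apply to the lists that follow too. SKP2, the F-box protein that marks p27 for degradation, fell by 0.75 (SE 0.06, limma adjusted p = 5.2e-05). SKP2 was also 0.70 lower with empty vector than with control siRNA, and its difference between ERβ2 siRNA and empty vector was -0.05 (limma adjusted p = 0.612). CDC25A, the phosphatase that activates CDK2, fell by 0.73, and against empty vector its difference was -0.67 and passed. PKMYT1, an inhibitory kinase of CDK1, fell by 0.59 and differed by -0.72 against empty vector, which passed too. CDKN1A, which encodes p21, rose by 0.61 (SE 0.07, limma adjusted p = 2.6e-04), with values of 8.63, 8.63 and 8.47 with control siRNA and 9.24, 9.19 and 9.14 with ERβ2 siRNA. Its empty vector arrays, at 9.06, 8.96 and 8.97, and plasmid arrays, at 9.19, 9.13 and 9.16, also lay above all control siRNA arrays. Between ERβ2 siRNA and empty vector CDKN1A differed by 0.19 (limma adjusted p = 0.0384), which passed. CDKN1B, which encodes p27, had a difference of 0.06 after ERβ2 siRNA (limma adjusted p = 0.508) and was 0.72 lower with empty vector than with control siRNA. Its difference between ERβ2 siRNA and empty vector was 0.78 and passed. CDKN2A, which encodes p16, read 10.2 to 10.51 over the 12 arrays and differed by -0.06 (limma adjusted p = 0.440).

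Of 20 pocket proteins, E2F factors and partners of the MuvB complex, 19 were measured, of which 1 rose, 9 fell and 9 did not pass, with a median of -0.14. RB1, the substrate that gives the pathway its name, read only 4.8 to 4.97 over the 12 arrays, and BT549 is known as a line that lacks functional RB1. E2F2, an activating E2F factor, had 7.06, 7.07 and 7.14 with control siRNA and 5.89, 5.69 and 5.89 with ERβ2 siRNA, beside 6.91 to 7.12 on the 6 arrays with plasmid DNA. The ERβ2 siRNA arrays of E2F2 lay below the other 9, and E2F2 fell by 1.27 (SE 0.07, limma adjusted p = 1.2e-05). The repressive E2F7 and E2F8 fell by 0.39 and 0.52, and FOXM1, a factor of the later cell cycle, fell by 0.33. E2F3 was the gene of the list that rose, by 0.27. FOXM1 and E2F3 had steps of the same sign with empty vector, at -0.39 and 0.33, and between ERβ2 siRNA and empty vector their differences turned to 0.06 (limma adjusted p = 0.482) and -0.06 (0.577). E2F2, E2F7 and E2F8 passed against empty vector as well, at -1.20, -0.21 and -0.46. E2F7 also had a step of the same sign between empty vector and control siRNA (-0.18, limma adjusted p = 0.0641).

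Of 42 other cyclins and CDKs, 38 were measured: 3 rose, 16 fell and 19 did not pass, with a median of -0.04. Over all genes 18.3% rose and 17.5% fell. CCNF, which encodes the F-box cyclin F, fell by 0.97 (SE 0.05, limma adjusted p = 1.2e-05) and CCNB2, a mitotic cyclin, by 0.65. CCNJ rose by 0.62, and CCNT2, a partner of the transcription kinase CDK9, by 0.65. All 4 of these had a step of the same sign and like size with empty vector, at -1.03, -0.72, 0.69 and 0.76, in a comparison that shares the control siRNA arrays. Their differences between ERβ2 siRNA and empty vector lay between -0.11 and 0.07, and none passed. The genes were picked by their knockdown p. In the whole list 7 genes were higher and 16 lower with empty vector than with control siRNA, beside 19.2% and 22.4% of all genes.

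Of 36 S phase genes that E2F factors drive, 34 were measured: 2 rose, 14 fell and 18 did not pass, with a median of -0.12. RFC3, a subunit of the clamp loader, fell by 0.90 (SE 0.07, limma adjusted p = 4.4e-05), GINS1, part of the replicative helicase, by 0.88, MCM10 by 0.60 and ORC6, of the origin recognition complex, by 0.58. Against empty vector these differences were -0.74, -0.83, -0.75 and -1.05, and all 4 passed. Of 27 mitogen-response factors that act upstream of cyclin D, all 27 were measured, of which 11 rose, 7 fell and 9 did not pass, with a median of 0.05. ETS2 rose by 0.62, while TCF7L1, FOSL1 and EGR1 fell by 0.76, 0.51 and 0.51. ETS2 was also 0.67 higher with empty vector than with control siRNA, and its difference between ERβ2 siRNA and empty vector was -0.05 (limma adjusted p = 0.545). TCF7L1 and FOSL1 passed against empty vector too, at -0.89 and -0.62. EGR1, an immediate early gene of growth signals, was 2.05 higher with empty vector than with control siRNA. Its difference between ERβ2 siRNA and empty vector was -2.56 and passed. The lists other than the cyclins and CDKs had 24, 19, 34 and 27 measured genes, in the order given. Of these, 2, 2, 5 and 16 were higher with empty vector than with control siRNA, beside 19.2% of all genes. Lower were 7, 6, 4 and 4, beside 22.4% of all genes. With the plasmid no gene of the 5 lists passed.

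**Figure D4:**
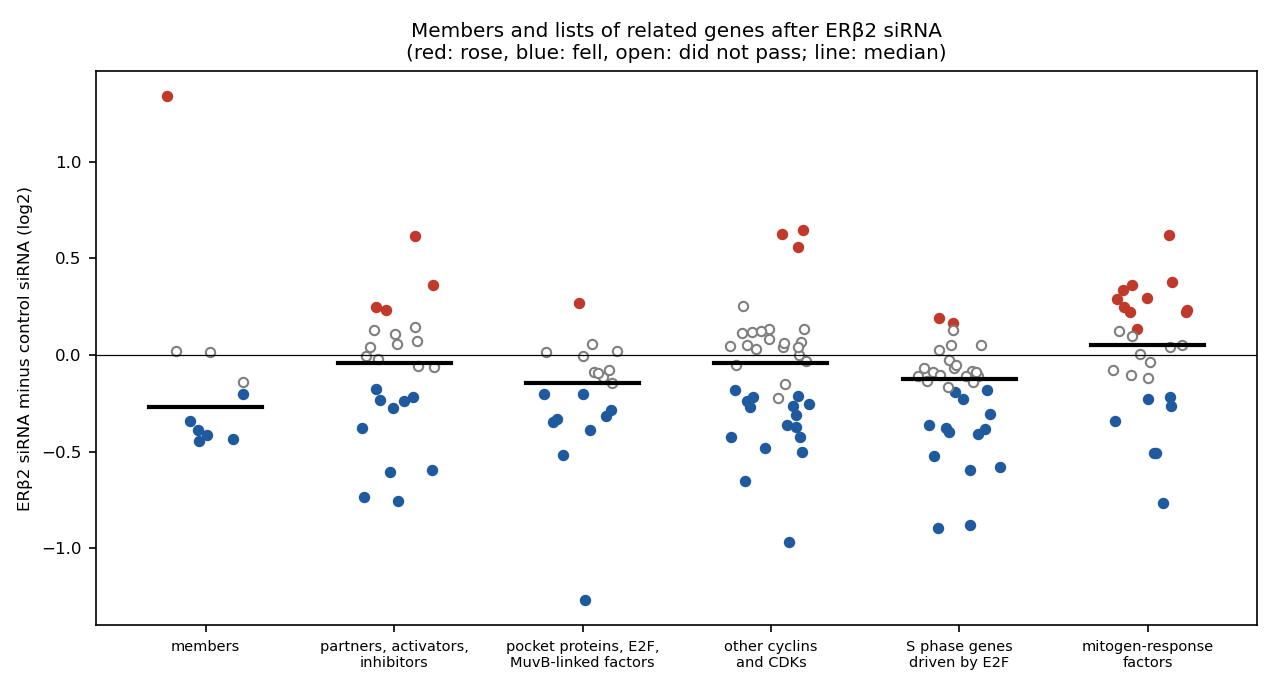
Difference between ERβ2 siRNA and control siRNA (log2, vertical axis) for the 10 genes and the 5 lists of related genes, with 1 point per gene, red where it rose, blue where it fell, open where it did not pass, and a line at each median. The lists hold genes in both directions, with medians from -0.14 to 0.05.

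The labels were checked against marker genes. ESR1 and PGR stayed at 3.34 to 4.06 and ERBB2 at 7.85 to 8.27 over the 12 arrays, while the mesenchymal VIM read 11.99 to 12.32. Of the epithelial markers, EPCAM and CDH1 read 3.46 to 4.6, whereas KRT8 read 6.63 to 8.39 and KRT18 9.05 to 11.15. PTPRC, CD3E and PECAM1, of blood and vessel cells, read 3.01 to 4.08. ESR2, the gene that encodes ERβ2, had a difference of -0.02 (limma adjusted p = 0.913) after ERβ2 siRNA and of 0.47 (limma adjusted p = 0.449) with the plasmid, at values of 3.8 to 4.72. Its plasmid arrays, at 4.35, 4.72 and 4.37, lay above every array of the other groups, though the difference did not pass. Without a fall after the siRNA, the cluster does not check the knockdown label, and no probe for the ERβ2 splice form alone was used here. After ERβ2 siRNA 3 of the 4 epithelial markers rose, KRT8 by 0.78, KRT18 by 0.88 and CDH1 by 0.17 (limma adjusted p = 0.0997). So did 1 of the 4 mesenchymal markers, SNAI2, by 0.37, beside 18.3% of all genes, in the comparison in which most members moved. CDH1 was dim, at 3.63 to 4.11. KRT8 (-0.59), KRT18 (-0.89) and SNAI2 (0.89) also differed between empty vector and control siRNA, and all passed. The proliferation marker genes TOP2A and MKI67 fell by 0.32 and 0.21 after ERβ2 siRNA. TOP2A read 11.09 to 11.19 with control siRNA and 10.71 to 10.86 in the other 3 groups, and so set the control siRNA arrays apart as CCNA2 did. Their part in the members' values was not tested. Array medians lay between 5.04 and 5.14, and the 3 arrays of each group limit the precision of every value.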

How the data were processed

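Total RNA of 12 BT549 cultures, 3 biological replicates in each of 4 groups, was measured on Human Gene 1.1 ST arrays of Affymetrix. The authors normalized the arrays by RMA in Affymetrix Expression Console and deposited log2 values of 33297 transcript clusters. The base of the log is not stated and was taken as 2, and for the software no version is given in the sources used here. RMA fits all arrays together and compresses differences of dim probes. Which siRNA set was used is not given either.

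Clusters were named from the platform annotation, in which 19181 had 1 symbol, 2055 had several and 12061 were not listed. For 19143 of the first group the gene ID was found in RefSeq (GRCh38.p14). The brightest cluster by its 12-array mean stood for a gene, which gave 17958 genes. Each pair of groups was fitted on its own 6 arrays with limma 3.58.1 in R 4.3.3 (lmFit, eBayes, two-sided), without covariates, and the difference of the siRNA and plasmid effects on all 12. P-values were adjusted by Benjamini-Hochberg over all genes, and an adjusted p of at most 0.1 passed. The study's methods used a t-test with q-values of at most 0.1, and asked for an unadjusted p under 0.05 and a 1.5-fold change as well, so the rule here differs from theirs. The scripts were tested on simulated data. No 2 arrays held identical values.

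The members, lists and tests were chosen with earlier results of these data known. The comparison of ERβ2 siRNA with empty vector and the motifs for the E2F core, the cell cycle homology core and the cyclic AMP response element were chosen after the data were seen. Named genes were all members, for each of the 5 lists up to 4 genes with the smallest knockdown p among those that passed, RB1, CDKN1A, CDKN1B, CDKN2A and E2F2 in any case, and the 3 nearest genes in pattern of the 3 members with the widest span of group means. E2F3 was named beside them because it was the only gene of its list that rose, and TOP2A, MKI67, ESR2 and the cell type genes as markers. Promoter windows were taken from RefSeq. CCND1, CCND2, CCNE2 and CDK2 are named only. Alternatives changed the cluster rule, the filter on dim genes, the normalization, the variance model, the test, the threshold, the arrays in the fit and the replicate block, and left out each array in turn.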

Additional observations from a re-analysis of the deposited data

Results flagged for a closer look

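In 8 members the difference after ERβ2 siRNA and the difference with the ERβ2 plasmid were themselves different by limma over the 12 arrays. Over all genes this held for 15% above 0 and 11.3% below 0. In the plasmid comparison by itself 2 of all genes passed, and no member did. The members among these 8 other than CCND2 also passed in the knockdown comparison. CCND2 passed in neither comparison by itself, at -0.14 after ERβ2 siRNA and 0.26 with the plasmid. The siRNA effect minus the plasmid effect was 1.41 for CDK6, -0.39 for CCND1, -0.40 for CCND2, -0.24 for CCNE1, -0.44 for CCNE2, -0.34 for CCNA1, -0.50 for CCNA2 and -0.40 for CDK2. Of these calls, CCNE1 was lost when arrays were centred on their medians (limma adjusted p = 0.115) and when any of 3 arrays was left out, and CCNA1 when arrays were centred (0.143) and when any of 7 arrays was left out. The siRNA effects were measured at 48 h and the plasmid effects at 24 h, each against its own control group, so time and treatment cannot be told apart. For CDK6, CCNA2 and CCND2 the 2 control groups differed as well, by 1.10, -0.50 and -0.40. For the other 5 they differed by -0.06 to 0.04, with CCND1 read from its brighter cluster.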

How the results depend on the processing

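The alternatives gave 6 to 8 members that passed after ERβ2 siRNA, except that 1, CDK6, was left when at least a 1.5-fold change was asked for. That setting also left 1 member, CDK6, between the control groups and 1 in the difference of effects. With the plasmid, the methods' t-test at an unadjusted p under 0.05 gave 1 member, the dim CCND2, beside 1288 of all 17958 genes. After Benjamini-Hochberg it gave 0 members and 0 of all genes. Set against empty vector in place of control siRNA, CCND2 turned to 0.26 and CCNA2 to 0.0667. CCND2 passed after ERβ2 siRNA in 1 fit over all 12 arrays (limma adjusted p = 0.0820) and without control siRNA replicate 1 (0.0990). CDK4 passed between the control groups with an intensity trend and robust prior (limma adjusted p = 0.0386) and in 1 fit over all 12 arrays (0.0639). In the difference of effects, centring each array on its median ended the calls of CCNE1 (limma adjusted p = 0.115) and CCNA1 (0.143), and CCNE1 was also lost without control siRNA replicate 3 (0.108), ERβ2 siRNA replicate 2 (0.101) or ERβ2 plasmid replicate 3 (0.107). The causes were not tested. Whether replicate numbers pair the arrays cannot be settled from so few arrays. Same-numbered deviations correlated at 0.223, 0.143 and 0.0138 in the knockdown and at -0.137, -0.0898 and 0.104 with the plasmid. Over all genes 6891 passed in the knockdown with the replicate block and 6429 without it. With the replicate block 7, 0, 3 and 8 members passed in the 4 comparisons, as without it.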
